A study of Homo sapiens with 4 samples.

Results

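The 7 transcripts described here encode P-TEFb, the kinase complex that releases paused RNA polymerase II into elongation, and the proteins of the 7SK ribonucleoprotein that holds it inactive. They are CDK9, the catalytic subunit; CCNT1 and CCNT2, the alternative T-type cyclins; HEXIM1 and HEXIM2, the inhibitors; LARP7, which binds the 3′ end of 7SK RNA; and MEPCE, which caps its 5′ end. They were taken by symbol from a count table of 28814 genes, and all 7 were found and passed the filter on low counts, as did 16862 genes in all. The table comes from 697 cells, an established line of human B-cell precursor leukaemia. One group of 2 libraries was treated for 24 h with 1 µM MZ1, and the control group of 2 libraries received the same volume of its solvent DMSO for 24 h. MZ1 is a bifunctional degrader: one end binds the bromodomains of BET proteins such as BRD2 and BRD3, the other recruits the VHL ubiquitin ligase. The comparison asks how the transcripts of P-TEFb and its inhibitory complex differ between treated and control cells.

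P-TEFb phosphorylates the tail of RNA polymerase II and the pausing factors NELF and DSIF. In most cells a large part of it sits in the 7SK complex, where a HEXIM dimer bound to 7SK RNA blocks the kinase, and LARP7 and MEPCE keep the RNA stable. Recruiting proteins bring free P-TEFb to chromatin, and a rise of HEXIM1 mRNA is widely used as a marker of BET inhibition.

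After MZ1 the parts of this system did not move together. The transcripts of the kinase, of cyclin T1 and of both inhibitors rose, and those of cyclin T2, LARP7 and MEPCE fell. The 4 rises stand against a background of 42.8% of all tested genes called higher, and the 3 falls against 41.3% called lower (edgeR's quasi-likelihood test, Benjamini-Hochberg adjusted p below 0.05). All 7 are protein-coding, and among tested protein-coding genes 38.5% were called higher and 48.8% lower. In total 84.2% of tested genes were called, so a call alone does not set a member apart. The changes were of moderate size: 2 of the 7 members changed at least 2-fold, as did 55.5% of all tested genes. The median log2 fold change (MZ1 over DMSO) was 0.69 over the members and 0.05 over all tested genes.

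The libraries held 14246367 to 16488005 counted reads. Levels are given as CPM, read counts scaled to library size with TMM factors, so each is relative to the rest of its library. In bulk RNA a change in RNA per cell and a change in the make-up of the cells cannot be told apart. Nothing in the labels ties the replicates to separate cultures, and the p-values cover only the spread from library to library, which may be technical. The values of the MZ1 and DMSO groups did not overlap for any of the 7 members, nor for 91.3% of all tested genes. All 9 listed B-cell precursor markers were present and were called lower with MZ1, beside 48.8% of all tested protein-coding genes. Their summed level was 3911 to 3924 CPM in the DMSO and 1230 to 1282 CPM in the MZ1 libraries. Of 6 myeloid markers 4 were counted, summing to 5.31 to 6.35 CPM with DMSO and 17.2 to 21.1 CPM with MZ1, but not in 1 direction. MPO, at 0 in both DMSO libraries, LYZ and CD14 were called higher. These passed the count filter only through the MZ1 libraries, so a call of lower was hardly possible for them. CSF1R, most of the sum with DMSO, was called lower (5.14 ± 0.68 to 0.929 ± 0.09 CPM, ± SD, n = 2). Of 6 T-cell markers 1 was counted (CD8A, 0.472 to 0.672 CPM with DMSO and 3.83 to 4.10 CPM with MZ1). Of 4 erythroid markers 3 were counted (0.122 to 0.472 and 2.75 to 3.61 CPM), with HBA1 at 0 in both DMSO libraries. Of 4 stromal or epithelial markers COL1A1 alone was counted (10.6 to 12.5 and 13.7 to 13.9 CPM). The part of these shifts in the results below was not tested.

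HEXIM1 and HEXIM2 lie next to each other on the plus strand of chromosome 17, and the HEXIM1 promoter is shown because the genes on both sides of it moved with it. The stretch below holds the 250 bases before the RefSeq start of HEXIM1 (GRCh38.p14, chr17:45148225-45148474, plus strand). Capitals mark the matches on either strand to the TATA box, searched as TATAAA; to the GC box, searched as GGGCGG; and to the CCAAT box. These matches do not overlap each other.
HEXIM1: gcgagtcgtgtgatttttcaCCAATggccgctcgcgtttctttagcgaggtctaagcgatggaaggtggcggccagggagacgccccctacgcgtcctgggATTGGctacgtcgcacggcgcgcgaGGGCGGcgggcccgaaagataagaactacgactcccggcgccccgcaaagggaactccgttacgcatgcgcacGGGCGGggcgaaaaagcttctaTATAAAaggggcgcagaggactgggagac
The match to TATAAA begins 29 bases before the start. GGGCGG was found at 124 and 51 bases before the start, and CCAAT at 230 bases on the plus strand and at 149 bases on the minus strand. Of 35116 such 250-base windows of RefSeq genes, 10.7% hold the TATA letters, 42.6% the GC box and 32.01% the CCAAT box on at least 1 strand. The 7 genes have 12 such windows, since RefSeq gives some of them several starts. The TATA letters were found in 1 of the 12, that of HEXIM1, the GC box in 8 and the CCAAT box in 6. CACGTG, the E-box bound by MYC and MAX among others, was in 2 of the 12 and in 6.34% of all windows. The 2 windows with CACGTG belong to CCNT1, which rose, and MEPCE, which fell. These matches describe the letters of the windows only.

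Among the inhibitors, HEXIM1 (chromosome 17, 45148502 to 45152101, GRCh38; 1 exon; ENSG00000186834) was at 46.2 and 42.9 CPM in the DMSO libraries and at 126 and 115 CPM in the MZ1 libraries. The lower MZ1 library was still well above the higher DMSO library. The rise was 2.71-fold, or 1.44 ± 0.06 on the log2 scale (± SE; edgeR adjusted p = 5.62e-17), and 77.3% of tested genes had a lower log2 fold change. HEXIM2 (chromosome 17, 45160700 to 45170040), the less studied paralog that can form dimers with HEXIM1, was at 2.81 and 3.78 CPM with DMSO and at 9.55 and 7.30 CPM with MZ1. It rests on few reads, 46 and 64 with DMSO and 135 and 101 with MZ1, and the groups did not overlap. Its log2 fold change was 1.35 ± 0.22 (edgeR adjusted p = 3.86e-06). Of the exonic length of HEXIM2, 50.3% is shared with the antisense gene ENSG00000267288, which had 0 to 2 reads in each library, and the counting is not known to use strand, so the HEXIM2 count is uncertain.

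**Figure D1:**
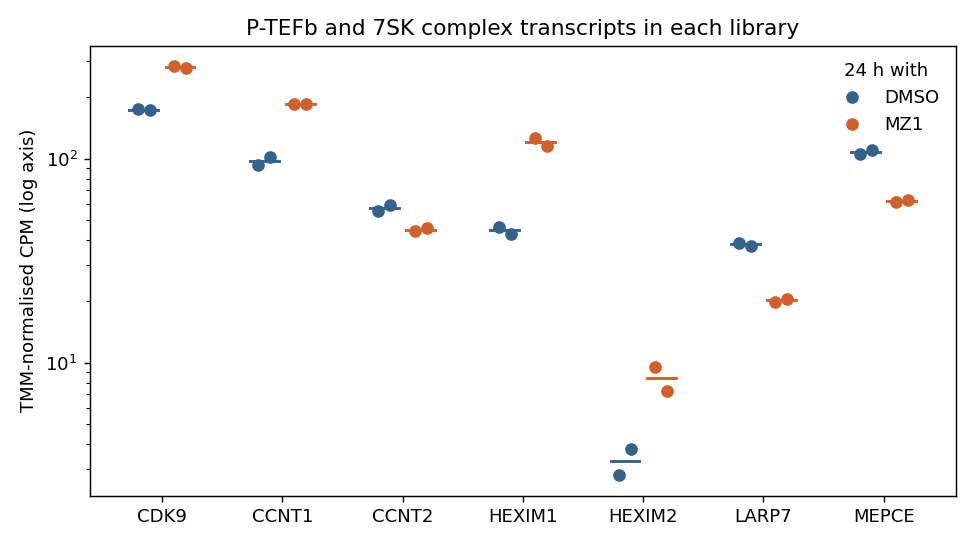
TMM-normalised CPM (log axis) of the 7 transcripts in each library; points are libraries, 2 with DMSO (blue) and 2 with MZ1 (orange), and lines are group means. CDK9, CCNT1, HEXIM1 and HEXIM2 are higher in both MZ1 libraries and CCNT2, LARP7 and MEPCE lower, with no overlap between groups.

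The kinase transcript CDK9 (chromosome 9, 127785679 to 127790787; ENSG00000136807) was at 175 and 173 CPM with DMSO and at 284 and 279 CPM with MZ1. The replicates were close together and the groups far apart. The log2 fold change was 0.69 ± 0.04, or 1.62-fold (edgeR adjusted p = 1.43e-13). Its neighbours on the chromosome went the other way. FPGS, which traps folates in cells and starts 3809 bases beyond CDK9, fell by 1.13 ± 0.05 on the log2 scale, and SH2D3C, an adaptor gene 6937 bases on the other side, fell 1.34-fold.

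The cyclin transcripts moved in opposite directions. CCNT1 (chromosome 12, 48688458 to 48716998, minus strand; ENSG00000129315) encodes cyclin T1, also the host cofactor of the HIV-1 protein Tat. It was at 93.7 and 102 CPM with DMSO and at 186 CPM in both MZ1 libraries, a rise of 1.90-fold (log2 fold change 0.93 ± 0.05; edgeR adjusted p = 8.08e-15). CCNT2 (chromosome 2, 134918235 to 134959342; ENSG00000082258) encodes cyclin T2, which shares the cyclin box and the kinase partner. It was at 55.4 and 59.1 CPM with DMSO and at 44.0 and 46.0 CPM with MZ1. The groups did not overlap, but the gap was small, a log2 fold change of -0.35 ± 0.07 (edgeR adjusted p = 5.90e-05). Upper-quartile scaling, which shifts all log2 fold changes up by a median of 0.27, ended this call (-0.077; edgeR adjusted p = 0.299). CCNT2 kept its direction there, and the other 6 members kept both direction and call under every scaling tried.

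Both stabilising proteins of 7SK RNA had lower transcripts. LARP7 (chromosome 4, 112636964 to 112657592; ENSG00000174720), which also takes part in the modification of U6 snRNA, was at 38.9 and 37.2 CPM with DMSO and at 19.8 and 20.6 CPM with MZ1. It fell 1.88-fold, with a log2 fold change of -0.91 ± 0.09 (edgeR adjusted p = 1.41e-09). MEPCE (chromosome 7, 100428790 to 100434126; ENSG00000146834), the methyltransferase that puts a methyl cap on 7SK RNA, was at 105 and 110 CPM with DMSO and at 61.4 and 62.7 CPM with MZ1. Its fall was 1.74-fold (log2 fold change -0.80 ± 0.06; edgeR adjusted p = 1.11e-12). In both genes the 2 libraries of a group lay close together compared with the gap between groups. Overlapping genes share 8.18% of the exonic length of LARP7 and 5.94% of that of MEPCE. ZGRF1, which starts on the other strand and overlaps the first bases of LARP7, was called higher (1.34-fold), while ZCWPW1, placed likewise at MEPCE, had a log2 fold change of -0.089 ± 0.26 (edgeR adjusted p = 0.751) whose sign turned with upper-quartile scaling (0.18), with a stricter count filter (0.081) and without DMSO replicate 2 (0.16) or MZ1 replicate 2 (0.18). PPP1R35, 1155 bases beyond MEPCE, had a log2 fold change of 0.28 ± 0.12 that passed the test (edgeR adjusted p = 0.0274) but was lost without DMSO replicate 1 (edgeR adjusted p = 0.221), DMSO replicate 2 (0.0908) or MZ1 replicate 1 (0.0928).

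**Figure D2:**
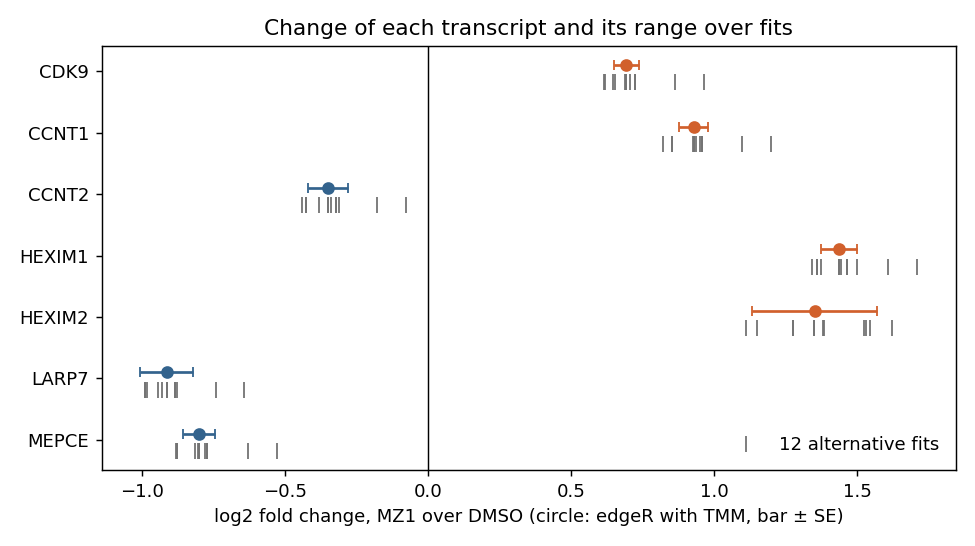
Log2 fold change (MZ1 over DMSO) of each transcript, as a circle with its standard error from edgeR with TMM scaling, above grey ticks for the same value in 12 alternative fits. No tick crosses 0, and the tick of CCNT2 nearest to 0 (-0.077) is that of upper-quartile scaling.

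Ratios of 2 transcripts inside a library do not depend on the scaling between libraries. There were 7 such ratios, tested with an exact two-sided permutation test over the 4 libraries, whose smallest possible p is 0.333. The counts of CCNT1 were 1.69 and 1.72 times those of CCNT2 in the DMSO libraries and 4.23 and 4.05 times in the MZ1 libraries. The shift was 1.28 on the log2 scale, against a largest gap between replicates of 0.06 (exact permutation p = 0.333, adjusted over the 7 ratios 0.389). Corrected for exonic length, CCNT1 made up 67.5% and 68.0% of the T-cyclin transcripts with DMSO and 83.9% and 83.3% with MZ1.

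The ratio of inhibitor to target transcripts was higher in both MZ1 libraries. The ratio of HEXIM1 to CDK9 counts was 0.264 and 0.248 with DMSO and 0.445 and 0.412 with MZ1, a difference of 0.74 on the log2 scale with replicate gaps of up to 0.11 (exact permutation p = 0.333, adjusted 0.389). The summed HEXIM counts went from 0.329 and 0.290 of the summed T-cyclin counts to 0.590 and 0.526. Per exonic length the same ratio was 0.757 and 0.677 with DMSO and 1.32 and 1.17 with MZ1, so that HEXIM transcripts were fewer than T-cyclin transcripts in both control libraries and more in both treated ones. The order was the same with the length of the longest transcript (0.685 and 0.621 against 1.249 and 1.10). These are ratios of transcripts, and protein was not analysed here.

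The ratio of HEXIM1 to HEXIM2 counts was 16.3 and 11.3 with DMSO and 13.2 and 15.7 with MZ1. These groups overlapped (log2 difference 0.08; exact permutation p = 1), and the sign of the difference turned when DMSO replicate 2 (-0.18) or MZ1 replicate 2 (-0.04) was left out. There were 0.369 and 0.337 LARP7 counts per MEPCE count in the DMSO and 0.323 and 0.329 in the MZ1 libraries (log2 difference -0.11, within the largest replicate gap of 0.13; exact permutation p = 0.333). The log2 ratio of CCNT1 to CDK9 differed by 0.24, with a replicate gap of up to 0.14, and that of CCNT2 to CDK9 by -1.04, with a gap of up to 0.11 (exact permutation p = 0.333 for each). CDK9 transcripts per length stood at 3.10 and 2.84 times the summed T cyclins with DMSO and 3.15 and 3.07 times with MZ1, ranges that overlap. With the length of the longest transcript they did not overlap (3.31 and 3.03 against 3.48 and 3.40). This last ratio was chosen after the values were seen.

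**Figure D3:**
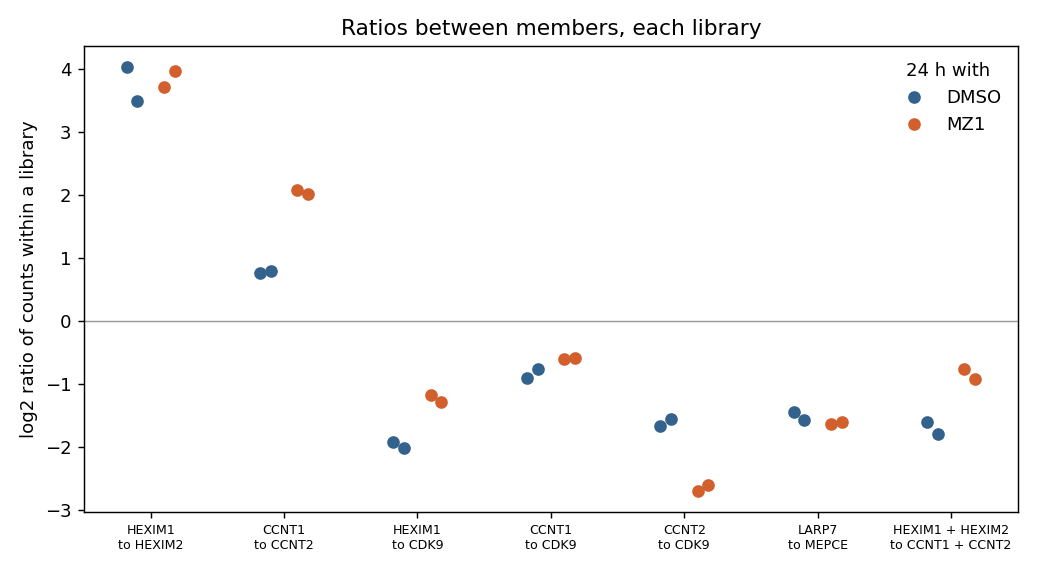
Log2 ratio of read counts of 2 members (or of the summed pairs) inside each library, not corrected for length; points are the 2 DMSO (blue) and 2 MZ1 (orange) libraries. CCNT1 to CCNT2 moves up by 1.28 and HEXIM1 to CDK9 by 0.74, while the groups of HEXIM1 to HEXIM2 overlap.

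Per kilobase of exon, the order of the levels changed with treatment. With DMSO, CDK9 came first at 58.0 ± 0.48 CPM per kb (SD, n = 2), then MEPCE at 31.5 ± 1.06, CCNT1 at 13.3 ± 0.79, HEXIM1 at 12.4 ± 0.66, LARP7 at 9.32 ± 0.28, CCNT2 at 6.31 ± 0.29 and HEXIM2 at 1.62 ± 0.34. CCNT1 and HEXIM1 overlapped there, and no other neighbours did. With MZ1, CDK9 was again first at 93.8 ± 1.06 CPM per kb, and HEXIM1 was second at 33.5 ± 2.2, ahead of CCNT1 at 25.2 ± 0.01 and MEPCE at 18.1 ± 0.26. CCNT2 at 4.95 ± 0.15 and LARP7 at 4.95 ± 0.14 could not be ordered, and HEXIM2 was last at 4.13 ± 0.78. That last place is uncertain, since 50.3% of the exonic length of HEXIM2 is shared with an antisense gene. The order depends on the length used: with the longest transcript LARP7 took the third place with DMSO and HEXIM1 the fifth, LARP7 being at 16.3 CPM per kb.

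Next to the HEXIM pair, ENSG00000276728 and HEXIM2-AS1 were also called higher. Both passed the count filter only through the MZ1 libraries, so a call of lower was hardly possible for them. ENSG00000276728, a long intergenic RNA on the minus strand (chromosome 17, 45146730 to 45148470), starts within the promoter stretch printed above, with 31 bases between it and the GENCODE start of HEXIM1. It had 4 and 10 reads with DMSO and 76 and 104 with MZ1, a log2 fold change of 3.91 ± 0.38 (edgeR adjusted p = 5.89e-10). The antisense RNA HEXIM2-AS1, which runs from HEXIM2 back into the 3′ part of HEXIM1 and shares 14.4% of the exonic length of HEXIM1, had 7 and 13 reads with DMSO and 30 and 22 with MZ1 (log2 fold change 1.62 ± 0.44; edgeR adjusted p = 0.00157). Its count is small beside the 727 to 1783 reads of HEXIM1. Without strand, reads from the shared exon cannot be assigned to either gene.

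Within 100 kb of HEXIM1, a window chosen after the values were seen, 11 of 15 counted genes were tested, HEXIM1 and HEXIM2 included. Of these 11, 7 were called higher and 2 lower, beside 42.8% and 41.3% of all tested genes. The 7 include HEXIM1 and HEXIM2 themselves. They also include ENSG00000276728 and HEXIM2-AS1, which passed the count filter only through the MZ1 libraries. ACBD4, an acyl-CoA binding protein gene, and PLCD3, a phospholipase C gene, start at -15.9 and -15.1 kb from the start of HEXIM1 and rose 1.89-fold and 1.998-fold. The outer genes differed: NMT1, the N-myristoyltransferase, fell 3.31-fold, and FMNL1, a formin of blood cells, fell 2.72-fold. DCAKD (edgeR adjusted p = 0.0682) and FMNL1-DT (edgeR adjusted p = 0.598) were not called, and MAP3K14-AS1 at the far end rose 2.66-fold. DCAKD was called higher in 3 of 12 alternative fits, those with upper-quartile scaling, median-of-ratios size factors or a stricter count filter.

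**Figure D4:**
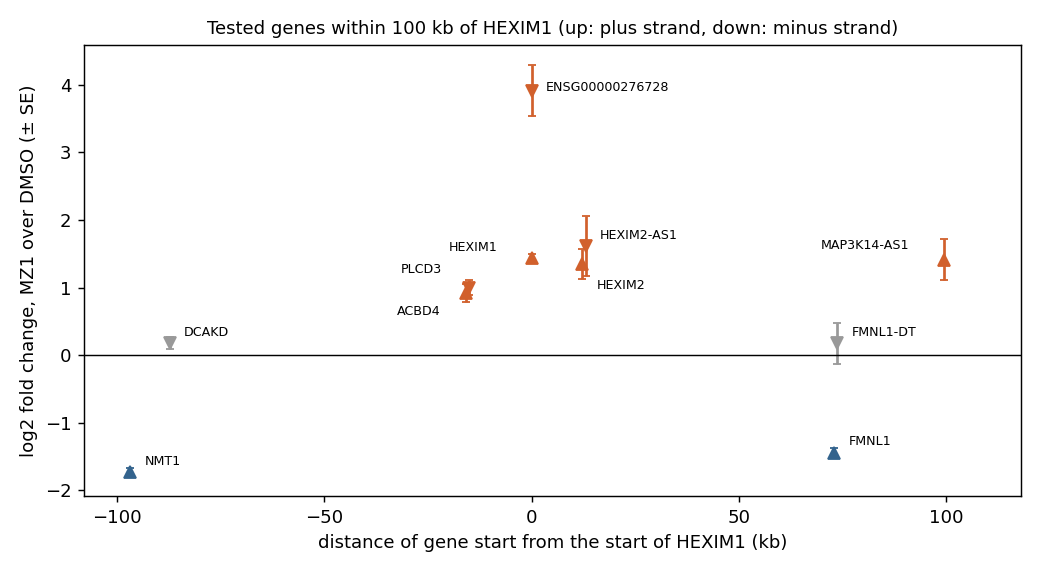
Log2 fold change (MZ1 over DMSO, ± SE) of the 11 tested genes within 100 kb of HEXIM1 against the distance of their annotated start from that of HEXIM1, with orange for called higher, blue for called lower and grey for not called. The 6 genes from ACBD4 to HEXIM2-AS1 are called higher, while NMT1 and FMNL1 are lower. ENSG00000276728 and HEXIM2-AS1 passed the count filter only through the MZ1 libraries.

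The other members had fewer informative neighbours. KANSL2, a chromatin regulator gene 6219 bases from CCNT1, rose 1.34-fold, and ADCY6 on the other side had a log2 fold change of -0.02 ± 0.07 (edgeR adjusted p = 0.804), which was 0.25 and called higher with upper-quartile scaling. CCNT2-AS1 had 5 to 11 reads in each library and was not tested, and ACMSD had 4 to 6. MAP3K19, past CCNT2, had 1 and 0 reads with DMSO and 11 and 16 with MZ1 and was called higher (edgeR adjusted p = 2.87e-05). MAP3K19 passed the count filter only through the MZ1 libraries, so a call of lower was hardly possible. MIR302CHG, the microRNA host gene antisense to LARP7, had 4 and 1 reads with DMSO and 12 and 7 with MZ1, too few to test. PILRA, 28690 bases from MEPCE, rose 6.74-fold from 1.17 ± 0.16 CPM (SD, n = 2).

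By level and change together, the genes most like HEXIM1 were HS6ST1, RB1CC1 and KIAA0319L. Their Euclidean distances from HEXIM1 were 0.09, 0.10 and 0.14 in log2(CPM + 0.5) over the 4 libraries, among all tested protein-coding genes. RB1CC1, for example, went from 43.2 ± 1.95 to 120 ± 1.91 CPM (SD, n = 2). With 4 libraries in 2 groups such likeness says little beyond a like level and a like fold change.

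Of 7SK RNA itself, RN7SK is not analysed here. The 57 counted copies of it (RN7SKP genes) held 106 and 87 reads in all in the DMSO libraries and 214 and 198 in the MZ1 libraries. Of these copies 5 could be tested, of which 4 were called higher and 0 lower, beside 42.8% and 41.3% of all tested genes. These 4 passed the count filter only through the MZ1 libraries, so a call of lower was hardly possible. Their number is therefore not a result about the copies. RN7SKP16 had 10 and 8 reads with DMSO and 40 and 20 with MZ1 (log2 fold change 1.97 ± 0.46; edgeR adjusted p = 3.20e-04). Reads of similar copies can be assigned to the wrong one, and how alike these copies are was not examined, so single ones are uncertain. The most reads any copy had in a library was 40. These reads are not a measure of 7SK RNA, which carries no poly(A) tail.

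The transcripts of BRD2 and BRD3, targets of MZ1, were examined too. BRD3 rose by 1.51 ± 0.05 on the log2 scale (± SE), beside 1.44 for HEXIM1. BRD2 had a log2 fold change of -0.13 ± 0.04, but was at 0.14 under upper-quartile scaling and 0.037 under a stricter count filter.

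Most genes for proteins that bind 7SK RNA or release P-TEFb from it fell. Of 16 such genes 13 were lower and 2 higher, with a median log2 fold change of -0.98. All genes of this and the following lists are protein-coding, and of all tested protein-coding genes 48.8% were called lower and 38.5% higher, with a median of -0.20. The falls with the smallest adjusted p were in HNRNPA1 (3.96-fold), an RNA-binding protein that takes up 7SK RNA when P-TEFb is released, and in DDX21 (6.65-fold) and WDR43 (8.73-fold), nucleolar proteins with reported roles in release or pausing. SYNCRIP and HNRNPR, further hnRNP proteins found on 7SK RNA, fell 3.49-fold and 1.94-fold. Of 5 phosphatase genes 1 was higher and 4 lower. PPM1B, whose product can act on the activation loop of CDK9, rose 2.01-fold, whereas PPM1G fell 2.18-fold and PPP1CA 1.79-fold. PPM1A was called lower (log2 fold change -0.29) but not with upper-quartile scaling (-0.020), and PPP3CA (-0.14) was called higher there (0.14) and was at 0.036 with the stricter count filter. The call of PPP3CA was also lost with DESeq2 (DESeq2 adjusted p = 0.274) and with median-of-ratios size factors (edgeR adjusted p = 0.0801). It was lost too without MZ1 replicate 1 (log2 fold change -0.12) or MZ1 replicate 2 (-0.14). TRIM28, which tethers the 7SK complex to promoters, rose by 0.34 ± 0.04 on the log2 scale.

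Genes for recruiters of P-TEFb were mixed. Of 15 listed, 14 were tested, 7 were higher and 5 lower, with a median of 0.08. AFF3, among those lower, passed the count filter only through the DMSO libraries, so a call of higher was hardly possible for it. Of all tested protein-coding genes 38.5% were called higher and 48.8% lower, with a median of -0.20. The scaffolds of the super elongation complex differed among themselves: AFF4 rose 3.66-fold and AFF1 1.40-fold, AFF2 fell 1.43-fold, and AFF3, at 1.68 ± 0.30 CPM with DMSO, had 0 reads with MZ1, at least 15.7-fold lower against a floor of 3 counts over the group (counting error only). TAF7, a TFIID subunit, rose 1.57-fold. MLLT1, the YEATS reader of the complex, was called lower by 1.22-fold, a call that was lost with upper-quartile scaling (log2 fold change -0.02).

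The substrates of P-TEFb at the paused polymerase did not move together. Of 13 listed, 12 were tested, 5 were higher and 6 lower, with a median of -0.26, close to the 38.5% and 48.8% and the median of -0.20 of protein-coding genes. All 4 NELF subunit genes fell, from NELFB with a log2 fold change of -0.48 ± 0.05 to NELFCD with -3.26 ± 0.07, and all 4 were called lower in each of 12 alternative fits. SUPT5H, the DSIF subunit that P-TEFb phosphorylates, rose 1.96-fold, SUPT6H 1.93-fold and POLR2A, the polymerase's largest subunit, 1.81-fold. In the PAF1 complex, which binds the elongating polymerase, CDC73 fell 2.40-fold and LEO1 3.69-fold, and CTR9 rose 1.87-fold.

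Among 17 genes for the modification, folding and turnover of P-TEFb, 5 were higher and 8 lower, with a median of -0.03, beside 38.5% and 48.8% of protein-coding genes. The chaperone genes HSPA8 and HSP90AB1, whose products help to fold CDK9, fell 5.84-fold and 2.74-fold. KAT2A, an acetyltransferase that acts on CDK9, fell 6.52-fold, and the deacetylase genes SIRT2 and HDAC1 rose 3.20-fold and 1.41-fold. Other genes with these activities went the other way: the deacetylase gene HDAC3 and its corepressor NCOR1 fell 1.48-fold and 1.42-fold, and the acetyltransferase gene EP300 rose 1.35-fold. CREBBP, the relative of EP300, was called higher (log2 fold change 0.12), a call lost without DMSO replicate 1 (0.061), DMSO replicate 2 (0.10) or MZ1 replicate 2 (0.090). Its call was also lost with library totals alone (0.048) and with no count filter (0.047). SKP2, an F-box gene linked to CDK9 turnover, fell 2.73-fold, and SKP1, its partner, rose 1.52-fold.

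Of 13 other transcriptional kinases and their cyclins 8 were higher and 4 lower, with a median of 0.36, beside 38.5% and 48.8% of protein-coding genes. With no count filter 5 were called higher. The cyclin L genes CCNL1 and CCNL2, of the splicing-linked CDK11 kinases, rose 5.11-fold and 3.09-fold, beside 2.71-fold for HEXIM1. CDK19 of the Mediator kinase module rose 2.48-fold. CDK12 and CDK13, which like CDK9 phosphorylate the polymerase tail, parted: CDK12 fell 1.42-fold and CDK13 rose 1.40-fold. MNAT1 of the CDK7 complex fell 2.01-fold, and CDK7 was at 16.8 ± 1.09 and 19.3 ± 0.50 CPM (SD, n = 2; edgeR adjusted p = 0.109), but was called higher with upper-quartile scaling and with a stricter count filter. CDK11B was called lower (-0.22 on the log2 scale) but was at 0.0499 with upper-quartile scaling, while CDK11A rose 4.79-fold. The 2 genes are near-identical copies, so their counts are uncertain.

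Of 8 genes listed with LARP7 and MEPCE, not all of the same families, 6 were lower and 2 higher, with a median of -0.70. Among protein-coding genes 48.8% were lower and 38.5% higher. LARP6, among those lower, had 93 and 73 reads with DMSO and 11 and 2 with MZ1. It would not have passed the count filter on the MZ1 libraries alone, so a call of higher was hardly possible for it. LARP1, which binds mRNAs of ribosomal proteins, fell 4.02-fold, SSB, the La protein, 1.85-fold, and METTL16, which methylates U6 snRNA, 3.39-fold. LARP4B rose 1.95-fold. BCDIN3D, related to MEPCE, was called higher by 0.38 ± 0.17 on the log2 scale, a call that was lost in 7 of 12 alternative fits, among them those without DMSO replicate 1 (0.31), DMSO replicate 2 (0.37) or MZ1 replicate 2 (0.30).

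**Figure D5:**
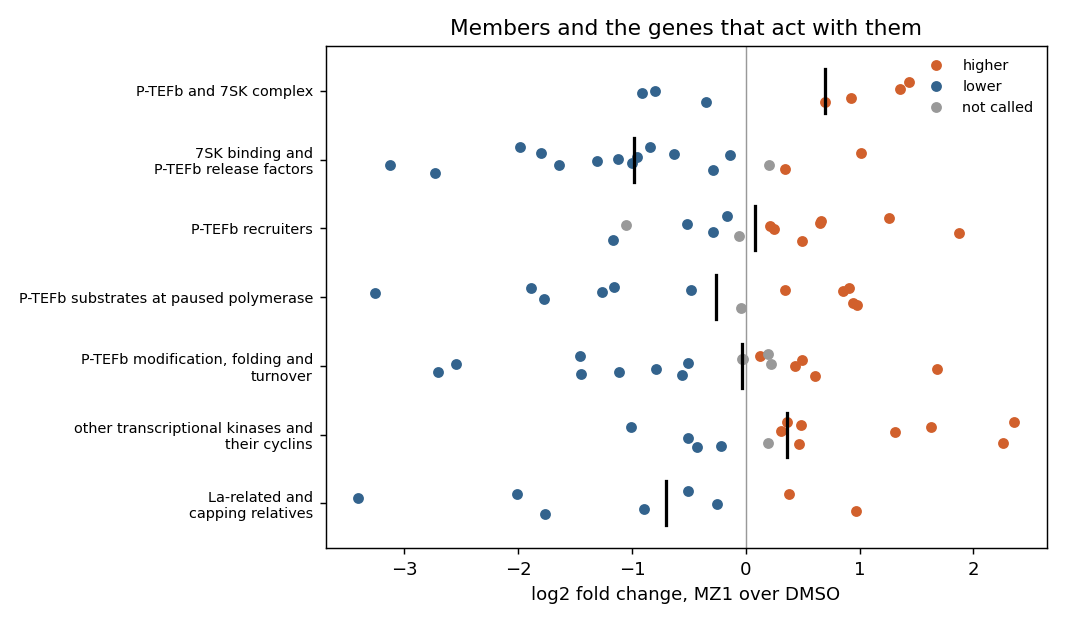
Log2 fold change (MZ1 over DMSO) of the 7 members and of the tested genes in 6 lists; points are genes (orange called higher, blue called lower, grey not called; vertical offsets only separate points), bars are list medians. AFF3 is left out of the points because it had 0 reads with MZ1. The bar of the 7SK binding and release list lies at -0.98 and that of the 7 members at 0.69.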

How the data were processed

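The 4 libraries of 697 cells hold total RNA taken up in TRIzol and prepared with Illumina's TruSeq RNA kit, per the labels' protocols. The authors deposited raw read counts, 1 column for each library, keyed by Ensembl ID. Alignment with HISAT2 2.2.0 to hg38 is recorded per the submitters' processing notes. No source used here names the program that counted reads, or its annotation and use of strand. Groups came from the sample titles.

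Positions, exonic lengths and overlaps came from GENCODE release 29 (GRCh38), which held each of the 28814 IDs; the gene name table gave symbols for 28597. Promoter windows are RefSeq's (GRCh38.p14), matched by symbol for all 7 members. The test was edgeR 4.0.16 in R 4.3.3: filterByExpr, TMM, then glmQLFit and glmQLFTest with a treatment term, adjusted by Benjamini-Hochberg over 16862 genes. SEs were derived from the F statistic and the unshrunk coefficient. Ratios within a library used a prior count of 0.5. The replicates of a group differed by more than sampling noise (chi-square over degrees of freedom 2.44 with DMSO, 2.17 with MZ1). The code was tested on simulated counts. The 12 alternative fits were DESeq2 1.42.0, limma-voom (limma 3.58.1), 3 other scalings, no count filter or a stricter one (at least 50 counts in 2 libraries), a replicate block, and leaving out each library.

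The members and gene lists were chosen with earlier results of these data known. Named are all members, BRD2 and BRD3, adjacent or overlapping genes, the 3 genes most like HEXIM1, and up to 3 genes of each list in each direction by smallest adjusted p. Further list genes (SYNCRIP, HNRNPR, PPM1G, PPP1CA, NELFB, LEO1, CTR9, SKP2, CDK13, CDK7, CDK11A, PPM1A, PPP3CA, HDAC3, NCOR1, EP300, CREBBP), markers, RN7SKP16 and the genes within 100 kb of HEXIM1 were named after their values were seen. Some genes under this rule are not reported here.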

Additional observations from a re-analysis of the deposited data

How the results depend on the processing

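The 4 rises and 3 falls among the members were counted again in 12 alternative fits. All 4 rises were called in each, and all 3 falls in each except upper-quartile scaling, where CCNT2 was at -0.077 and 2 falls were left. Leaving out 1 library gave log2 fold changes of 0.65 to 0.70 for CDK9, 0.82 to 0.95 for CCNT1, -0.44 to -0.31 for CCNT2, 1.34 to 1.501 for HEXIM1, 1.11 to 1.54 for HEXIM2, -0.98 to -0.88 for LARP7 and -0.88 to -0.78 for MEPCE; an arm left with 1 library is assumed to vary like the other. Upper-quartile scaling moved all genes by a median of 0.27 and the stricter filter by 0.17; with the former 8304 genes were higher and 5880 lower, in place of 7222 and 6969. The log2 ratio of HEXIM1 to HEXIM2 ranged from -0.18 to 0.35 when 1 library was left out, and was negative without DMSO replicate 2 (-0.18) or MZ1 replicate 2 (-0.04); the other 6 ratios kept their sign. With the longest transcript as length, levels in CPM per kb (DMSO, then MZ1) were 70.6 and 114 for CDK9, 8.28 and 6.50 for CCNT2, 2.16 and 5.51 for HEXIM2, 16.3 and 8.66 for LARP7 and 35.6 and 20.5 for MEPCE, and 26.7 for CCNT1 with MZ1. Signs turned for BRD2 (0.14 with upper-quartile scaling, 0.037 with the stricter filter), CDK11B (0.0499 with upper-quartile scaling), PPP3CA (0.14 and 0.036 with the same 2 settings as BRD2), ADCY6 (0.0082 with DESeq2 and 0.0083 with its size factors in edgeR, 0.25 with upper-quartile scaling, 0.15 with the stricter filter, and -0.074 to 0.025 when 1 library was left out) and ZCWPW1 (0.18 with upper-quartile scaling, 0.081 with the stricter filter, and -0.41 to 0.18 when 1 library was left out). Counts of list genes moved by over 1.5 times as follows: with upper-quartile scaling, release factors higher from 2 to 4, recruiters lower from 5 to 3, modification genes higher from 5 to 9 and other kinases lower from 4 to 2; the stricter filter gave the same 3, 9 and 2 for the last 3 lists; DESeq2 gave 2 kinases lower, no count filter 5 kinases higher in place of 8, and 7 fits 1 LARP relative higher in place of 2. The causes were not tested.

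The replicate numbers shared by the groups showed no sign of pairing the libraries (correlation of deviations 0.014). With 2 libraries a group this single value cannot settle whether they were paired. A fit with the replicate number as a block called the same 4 members higher and 3 lower (CCNT2 at -0.35), and 7107 genes higher and 6856 lower in all. HEXIM2 has the fewest reads of the members (46 to 135 in a library), which limits its precision.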
